A study of Mus musculus with 6 samples.

Results

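The genes described here encode nuclear subunits of the respiratory chain and of ATP synthase. They were chosen by symbol: Nduf genes of complex I, Sdha to Sdhd of complex II, Uqcr genes and Cyc1 of complex III, Cycs for cytochrome c, Cox4 to Cox8 genes of complex IV, and Atp5 genes of ATP synthase (complex V). The rule found 85 of the 19505 genes named on the array, each with 1 probe set. Complex I had 35 genes, complex II 4, complex III 9, cytochrome c 1, complex IV 18 and ATP synthase 17, and Ndufa4, an Nduf gene whose product is a complex IV subunit, was set beside complex IV.

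The respiratory chain passes electrons from NADH (complex I) and succinate (complex II) through complex III and cytochrome c to oxygen at complex IV, and ATP synthase uses the proton gradient that results. Heart muscle cells are packed with mitochondria and live mainly on this pathway, and they use muscle isoforms of several complex IV subunits. Cultured fibroblasts have fewer mitochondria and use the ubiquitous isoforms.

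Gene expression was measured on 6 Affymetrix arrays, with 1 array per group. Primary cardiac fibroblasts (CF) were kept for 48 h with the secretome (secreted products) of Ccrl2+ macrophages, that of Ccrl2- macrophages, or PBS, and primary cardiomyocytes (CM) were given the same 3 treatments. All samples are labelled heart, genotype C57BL/6N, age 15 to 16 weeks, and the macrophages were sorted from 6 pooled hearts of wild-type mice 1 week after TAC (transverse aortic constriction, a pressure overload model of heart failure). The labels disagree in places: source names speak of a secretome while the protocol speaks of co-culture with the macrophages themselves, the PBS arrays are titled Sham, and the description field of all 6 names cardiac macrophages.

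Values are the authors' log2 values, so a difference of 1 is 2-fold, and values of different probe sets are not comparable as levels. With 1 array per group there is no spread between samples, no p-value was computed, and every difference below compares 2 arrays. A gene was counted as past the floor where the higher of the compared values reached 6.55, the median of all named values, and as different where the values also lay at least 2-fold apart. The share of all named genes past the floor that met the same criterion is given beside the first count. Of the 85 subunit genes, 77 were past the floor on all 6 arrays and 3 (Cox4i2, Cox6b2 and Cox7b2) on none. On all 6 arrays 56 exceeded the 95th percentile of the array's negative control probe sets, and 11 did so on none: Ndufa7, Ndufv3, Ndufb8, Ndufb10, Uqcr11, Cox4i2, Cox6b2, Cox7b2, Cox8c, Atp5e and Atp5k. The highest subunit value was 17.99 (Atp5b, cardiomyocytes with PBS), against a highest named value of 18.85 on that array.

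The cultures carried their own markers, and also those of other cells. All 8 cardiomyocyte markers were lower in fibroblasts than in cardiomyocytes with PBS (levels 4.43 to 16.12 against 13.73 to 18.85), but Tnnt2 and Nppa still read 16.12 and 16.10 in fibroblasts with PBS. All 6 fibroblast markers were higher in fibroblasts (14.36 to 17.53 against 6.20 to 15.34). Endothelial markers lay between 7.38 and 15.57 on the cardiomyocyte arrays, where Cdh5, an endothelial cadherin, read 15.43 to 15.57. Mural markers lay between 5.37 and 15.44 on the fibroblast arrays and 7.17 and 13.42 on the cardiomyocyte arrays, with Pdgfrb the highest on each. On the fibroblast arrays the mural markers Rgs5 and Myh11 were below the floor and Cspg4 read 6.79 to 6.95. Macrophage markers lay between 7.28 and 13.84 on the fibroblast arrays and between 5.16 and 12.88 on the cardiomyocyte arrays. The 3 adipocyte markers were at 2.94 to 3.78 throughout, below the floor. In such cultures a difference in RNA per cell and a difference in the share of cells of one type cannot be told apart.

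Promoter windows of muscle isoform and ubiquitous subunit genes are shown because the muscle isoforms had the largest measured differences between the cultures. Some windows also hold motifs of regulators described below. With PBS, Cox8b read 4.34 in fibroblasts, below the floor, and 10.25 in cardiomyocytes. With the lower value raised to the floor its difference was -3.70, smaller in size than the -4.21 measured for Cyc1. The RefSeq table (GRCm38.p6) held windows for 70 of the 85 genes, 75 windows in all, each from 250 bases before to 50 after a transcription start. The 250 bases before the start are printed for the muscle isoforms Cox7a1 and Cox8b, for Cox6a1, the ubiquitous partner of the muscle isoform Cox6a2, and for Sdha and Ndufb4, which hold the most NRF1 motifs. Capitals mark matches on either strand. In Cox6a1, Sdha and Ndufb4 they mark GCGCA and GCGC with any base between them (NRF1, nuclear respiratory factor 1). In the same genes they mark CCGGAAG (ETS factors, which include the GABP subunit GABPA). In Cox7a1 and Cox8b they mark CANNTG (E-box, the motif of MYOD-type and other factors).
Cox7a1 (chr7:30183921-30184170, plus strand): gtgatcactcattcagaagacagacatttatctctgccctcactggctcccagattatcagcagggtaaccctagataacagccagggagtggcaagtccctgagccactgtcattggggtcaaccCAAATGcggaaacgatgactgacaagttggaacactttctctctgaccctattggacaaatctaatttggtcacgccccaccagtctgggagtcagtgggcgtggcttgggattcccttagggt
Cox8b (chr7:140900447-140900696, minus strand): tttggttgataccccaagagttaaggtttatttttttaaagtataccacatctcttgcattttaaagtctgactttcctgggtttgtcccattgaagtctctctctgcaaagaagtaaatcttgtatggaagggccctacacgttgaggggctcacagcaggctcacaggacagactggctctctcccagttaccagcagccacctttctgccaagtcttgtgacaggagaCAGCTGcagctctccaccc
Cox6a1 (chr5:115348959-115349208, minus strand): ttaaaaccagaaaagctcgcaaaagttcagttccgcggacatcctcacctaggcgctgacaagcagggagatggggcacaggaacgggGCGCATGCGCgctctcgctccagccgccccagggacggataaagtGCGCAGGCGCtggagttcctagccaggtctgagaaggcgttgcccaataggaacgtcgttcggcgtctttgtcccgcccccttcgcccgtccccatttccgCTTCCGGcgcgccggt
Sdha (chr13:74350241-74350490, minus strand): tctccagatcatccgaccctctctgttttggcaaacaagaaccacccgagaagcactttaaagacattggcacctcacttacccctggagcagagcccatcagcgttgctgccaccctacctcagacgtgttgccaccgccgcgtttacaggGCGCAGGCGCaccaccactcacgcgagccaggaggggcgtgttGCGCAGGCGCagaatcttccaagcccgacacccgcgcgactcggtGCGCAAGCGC
Ndufb4 (chr16:37654369-37654618, minus strand): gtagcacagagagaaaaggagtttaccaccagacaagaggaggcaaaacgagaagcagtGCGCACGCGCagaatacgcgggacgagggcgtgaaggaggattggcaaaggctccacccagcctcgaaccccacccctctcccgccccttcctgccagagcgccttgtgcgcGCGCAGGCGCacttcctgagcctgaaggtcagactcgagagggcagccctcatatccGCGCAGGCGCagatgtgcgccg

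The Cox6a1 window held 2 NRF1 matches and 1 ETS match within 250 bases of 62.8% GC and 26 CpG. Sdha and Ndufb4 held 3 NRF1 matches each, with 61.6% and 63.2% GC, and no ETS match. Cox7a1 and Cox8b held neither motif, 1 E-box each, 51.2% and 47.2% GC, and 4 and 1 CpG. The lack was not particular to muscle isoforms. Cox7a2, the ubiquitous partner of Cox7a1, also held 0 NRF1 and 0 ETS matches and 1 E-box in its whole window. An NRF1 match stood in 17 of the 70 genes with windows. Ndufb4 also held 1 E-box, at -13, which is not marked in its stretch.

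The NRF1 motif stood in 18 of the 75 subunit windows (24.0%), against 4.60% of all 32851 windows of that length and 6.77% of the 19143 windows of genes on the array. CCGGAAG stood in 17 (22.7%, against 8.86% of all and 11.8% for genes on the array). AANATGGCG, a YY1 motif, stood in 10 (13.3%, against 2.38% and 3.23%). The E-box was no more frequent than elsewhere, in 68.0% against 72.3% and 68.9%. Of matches to different motifs, 1 pair overlapped. In fibroblasts over cardiomyocytes with PBS, the 38 genes with an NRF1, ETS or YY1 match had a median difference of -2.02 and the 30 without one past the floor -2.23. Genes with a match therefore did not have the larger median difference between the cultures.

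The largest contrast in these data was between the cell types. Of the 82 subunit genes past the floor with PBS, 75 had a value at least 2-fold lower in fibroblasts than in cardiomyocytes (16.9% of all named genes) and 0 had a higher one (13.9%). Their median difference was -2.02, a level 4.07-fold lower in fibroblasts, where the median of all genes was 0.01. The same held with Ccrl2+ secretome (75 of 81 lower, 17.6% of all genes, and 0 higher, 13.4%; median -1.97) and with Ccrl2- secretome (77 of 80 lower, 15.7%, and 0 higher, 12.3%; median -2.06). These 3 comparisons share no array. In 73 genes the 2-fold difference appeared in all 3 media, and the share of all named genes that did so was not computed. By order alone, in 80 of 82 every fibroblast array lay below every cardiomyocyte array (28.5% of all named genes), while 0 had every fibroblast array above (25.5%). The exceptions were Cox7a2l and Cox8c. The highest 95th percentile of negative control probe sets on any array was 10.74, and in 22 of the 75 genes lower with PBS the fibroblast value lay under it. With values under 10.74 raised to it, an alternative chosen after seeing the data, 63 of the 71 subunit genes that reached it were still 2-fold lower (13.1% of all named genes). Negative control probe sets themselves differed the other way, with a median of 0.55 over those past the floor and 30.6% of them at least 2-fold apart.

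**Figure D1:**
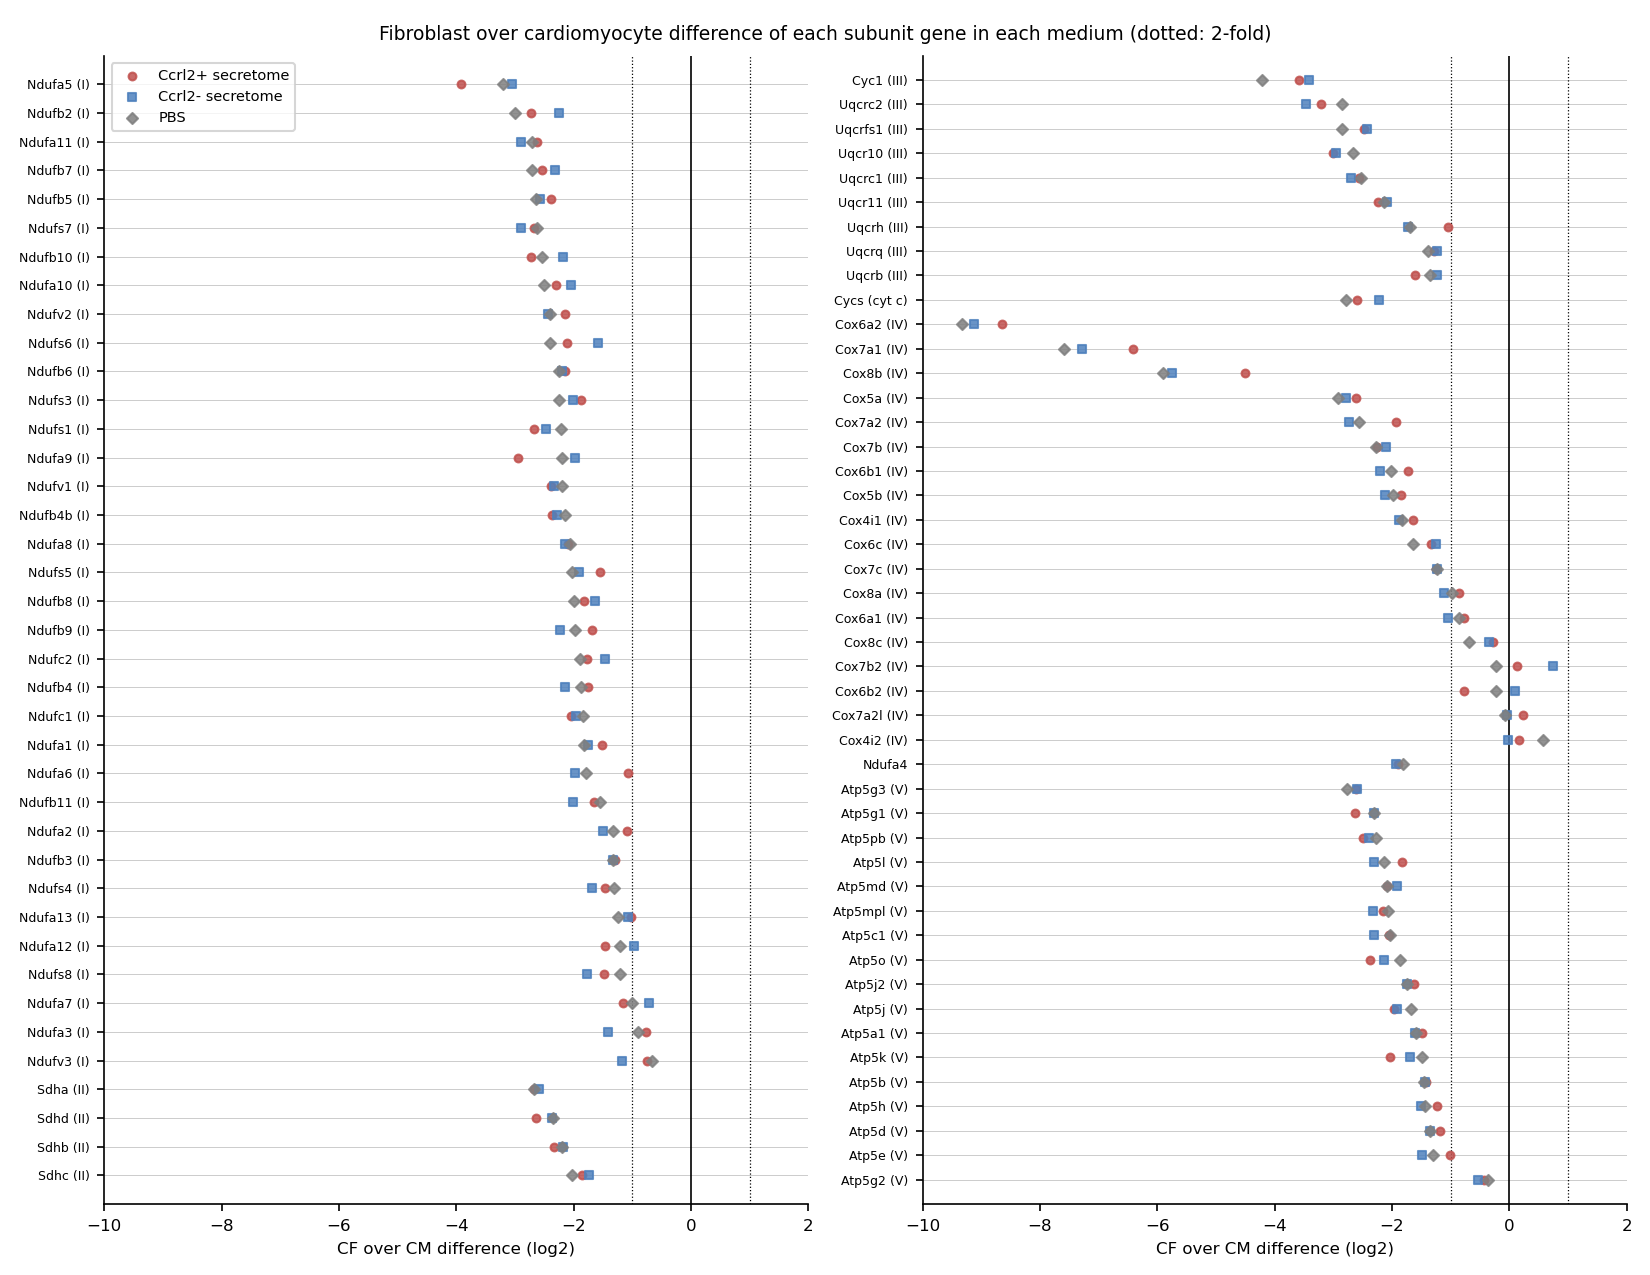
Fibroblast over cardiomyocyte difference (log2) of each of the 85 subunit genes, by complex, with Ccrl2+ secretome, Ccrl2- secretome and PBS (1 array per group, no error bars). Most genes lie left of the 2-fold line, and Cox6a2, Cox7a1 and Cox8b lie far to the left in all 3 media.

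By complex, the PBS difference was broad. All 9 complex III genes (median -2.53), all 4 complex II genes (-2.27), 33 of 35 complex I genes (-2.03), 16 of 17 ATP synthase genes (-1.74) and 11 of the 15 complex IV genes counted (-1.99) lay 2-fold or more below cardiomyocytes in fibroblasts. Cycs, the electron carrier cytochrome c, differed by -2.79 and Ndufa4 by -1.82.

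**Figure D2:**
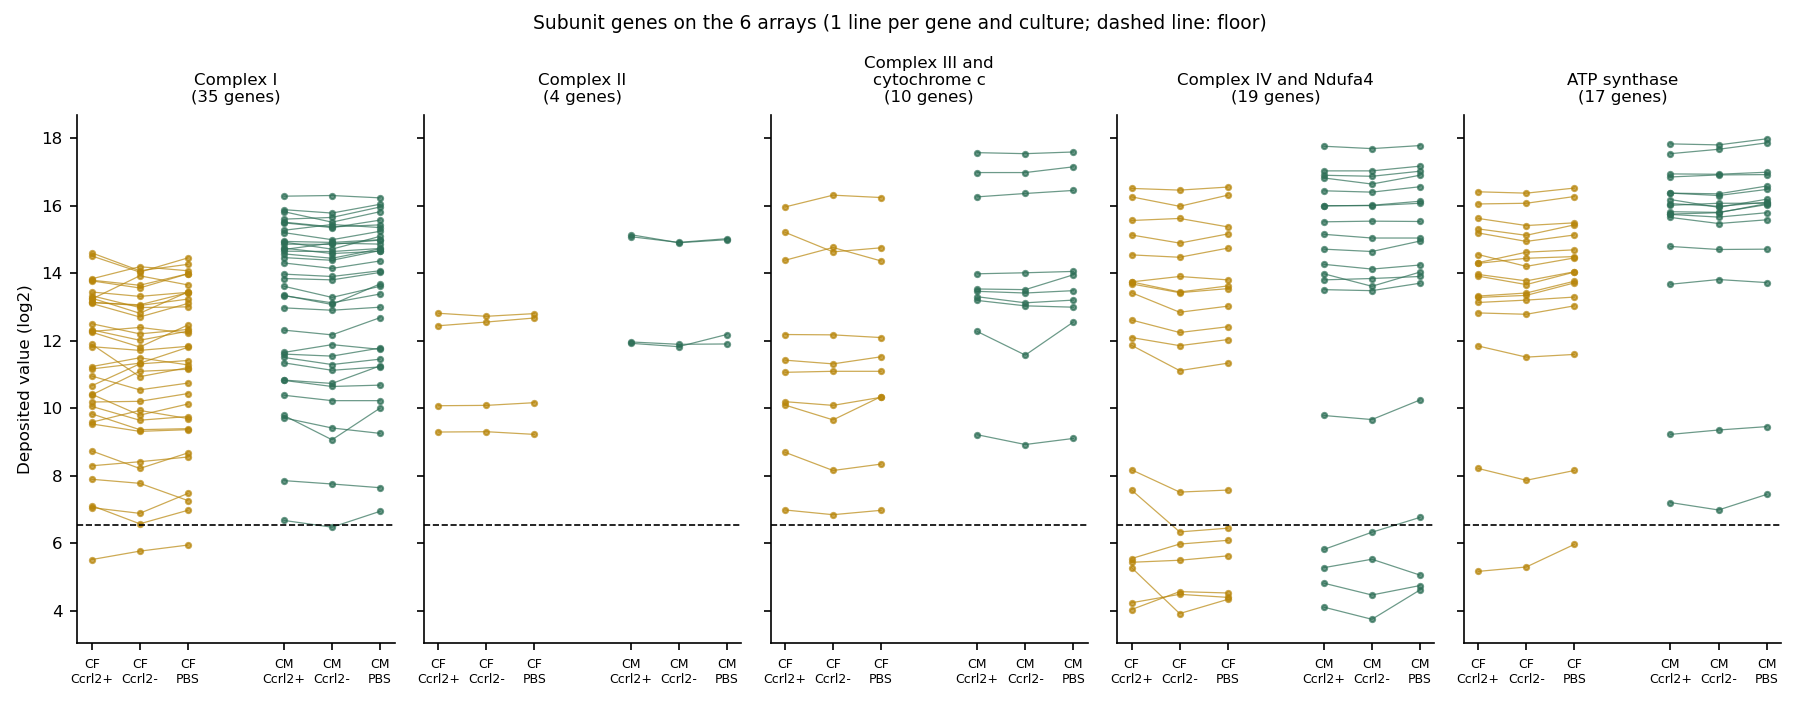
Deposited log2 values of the 85 subunit genes on the 6 arrays, 1 line per gene and culture, by complex (CF, fibroblasts; CM, cardiomyocytes; dashed line, floor of 6.55). Within a culture the lines are nearly flat, and the cardiomyocyte lines lie higher for most genes.

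Complex I takes electrons from NADH through its N module, passes them to ubiquinone in its Q module and pumps protons in its membrane arm. With PBS, the 10 N module genes had a median difference of -1.56 in fibroblasts over cardiomyocytes, the 4 Q module genes -2.43 and the 21 genes of the membrane arm and remaining accessory subunits -2.03. Ndufa5, a Q module subunit, had log2 values of 10.40, 11.10 and 11.16 in fibroblasts with Ccrl2+ secretome, Ccrl2- secretome and PBS, and 14.31, 14.15 and 14.37 in cardiomyocytes in the same order. Its PBS difference of -3.21 was the largest of complex I, and no fibroblast value came near a cardiomyocyte value. Ndufb2, an accessory subunit of the membrane arm, followed with 9.59, 9.94 and 9.70 in fibroblasts against 12.32, 12.18 and 12.69 in cardiomyocytes (-2.99 with PBS, and at least 3.86-fold against the negative control limit).

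The smallest complex I difference was that of Ndufv3, an N module accessory subunit, with 7.12, 6.58 and 6.98 in fibroblasts and 7.86, 7.76 and 7.65 in cardiomyocytes. Its PBS difference was -0.67, and its values were close to the floor. Ndufa7, another N module subunit, was counted as 2-fold lower with PBS, but its fibroblast value of 5.95 was below the floor, and against the floor the difference was at least 1.32-fold. Ndufb9, a membrane arm subunit, had 14.61, 14.08 and 14.27 in fibroblasts and 16.29, 16.31 and 16.24 in cardiomyocytes. Ndufb4 and Ndufb4b are near copies of one another, so their probe sets may share signal; their PBS differences were -1.88 and -2.15.

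Complex II, succinate dehydrogenase, also serves the citric acid cycle. Sdha, its flavoprotein, had 9.30, 9.31 and 9.23 in fibroblasts with Ccrl2+ secretome, Ccrl2- secretome and PBS, and 11.97, 11.90 and 11.91 in cardiomyocytes. The 3 values within each culture were almost equal, and the PBS difference was -2.68, or at least 2.25-fold against the negative control limit. Sdhb, the iron-sulfur subunit, had 12.82, 12.73 and 12.81 against 15.15, 14.91 and 15.00 (-2.19 with PBS). The membrane anchors Sdhc and Sdhd differed by -2.02 and -2.35.

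Complex III carries electrons from ubiquinol to cytochrome c. Cyc1, its cytochrome c1 haem subunit, had 8.70, 8.16 and 8.35 in fibroblasts and 12.28, 11.58 and 12.56 in cardiomyocytes. The measured PBS difference was -4.21, but the fibroblast values were under the negative control limit, against which Cyc1 was at least 3.53-fold lower. The cardiomyocyte value with Ccrl2- secretome lay below the other two. Uqcrc2, a core subunit, had 10.10, 9.66 and 10.35 in fibroblasts and 13.31, 13.13 and 13.21 in cardiomyocytes (-2.86 with PBS, and at least 5.54-fold against the negative control limit). Uqcrb, a small subunit that helps bind ubiquinone, had 15.97, 16.32 and 16.25 against 17.58, 17.55 and 17.60, and the smallest difference of the complex, -1.35. Uqcr11, another small subunit, had 6.99, 6.85 and 6.98 in fibroblasts and 9.22, 8.93 and 9.11 in cardiomyocytes.

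Cycs, which also triggers apoptosis once released from mitochondria, had 14.39, 14.77 and 14.37 in fibroblasts with Ccrl2+ secretome, Ccrl2- secretome and PBS, and 16.99, 16.99 and 17.16 in cardiomyocytes. It was the one carrier gene of the set, and its fibroblast value was highest with Ccrl2- secretome.

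Complex IV, cytochrome c oxidase, held both the largest and the smallest differences, and its isoform pairs were far apart. Cox6a2, the heart and skeletal muscle form of subunit VIa, had 8.18, 7.52 and 7.58 in fibroblasts with Ccrl2+ secretome, Ccrl2- secretome and PBS, and 16.83, 16.65 and 16.91 in cardiomyocytes. Its fibroblast values were under the negative control limit of 10.74, against which it was at least 72.0-fold lower with PBS (measured difference -9.33). Its ubiquitous partner Cox6a1 had 16.27, 15.99 and 16.32 in fibroblasts and 17.04, 17.04 and 17.18 in cardiomyocytes, a PBS difference of -0.86.

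Cox7a1, the muscle form of subunit VIIa, had 7.58, 6.34 and 6.45 in fibroblasts and 13.99, 13.62 and 14.04 in cardiomyocytes. Its PBS value in fibroblasts was below the floor, against which it was at least 180-fold lower, or at least 9.85-fold against the negative control limit. Cox7a2, the ubiquitous form, had 11.87, 11.12 and 11.34 in fibroblasts and 13.81, 13.85 and 13.91 in cardiomyocytes (-2.57 with PBS). Thus VIIa differed in both its forms, with the larger difference in the muscle form.

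Cox8b, the muscle form of subunit VIII in rodents, had 5.28, 3.92 and 4.34 in fibroblasts, all below the floor, and 9.79, 9.67 and 10.25 in cardiomyocytes. With PBS it was at least 13.0-fold lower in fibroblasts against the floor, and in both cultures its values were under the negative control limit. Cox8a, the ubiquitous form, had 15.14, 14.90 and 15.17 in fibroblasts and 16.00, 16.02 and 16.14 in cardiomyocytes (-0.97). Cox8c, the testis form, had 5.55, 5.98 and 6.09 in fibroblasts and 5.82, 6.33 and 6.77 in cardiomyocytes, past the floor on 1 array.

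Subunit IV differed from these pairs. Cox4i2, a form induced by low oxygen in lung and other tissues, was below the floor on all arrays, with 5.44, 5.50 and 5.63 in fibroblasts and 5.28, 5.53 and 5.06 in cardiomyocytes. The ubiquitous Cox4i1 carried the difference, with 12.62, 12.25 and 12.42 in fibroblasts and 14.27, 14.13 and 14.25 in cardiomyocytes (-1.83 with PBS). The testis forms Cox6b2 (4.04 to 4.57 in fibroblasts, 4.47 to 4.82 in cardiomyocytes) and Cox7b2 (4.24 to 4.49 and 3.75 to 4.62) were below the floor. Their ubiquitous partners Cox6b1 and Cox7b differed by -2.02 and -2.27 with PBS.

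**Figure D3:**
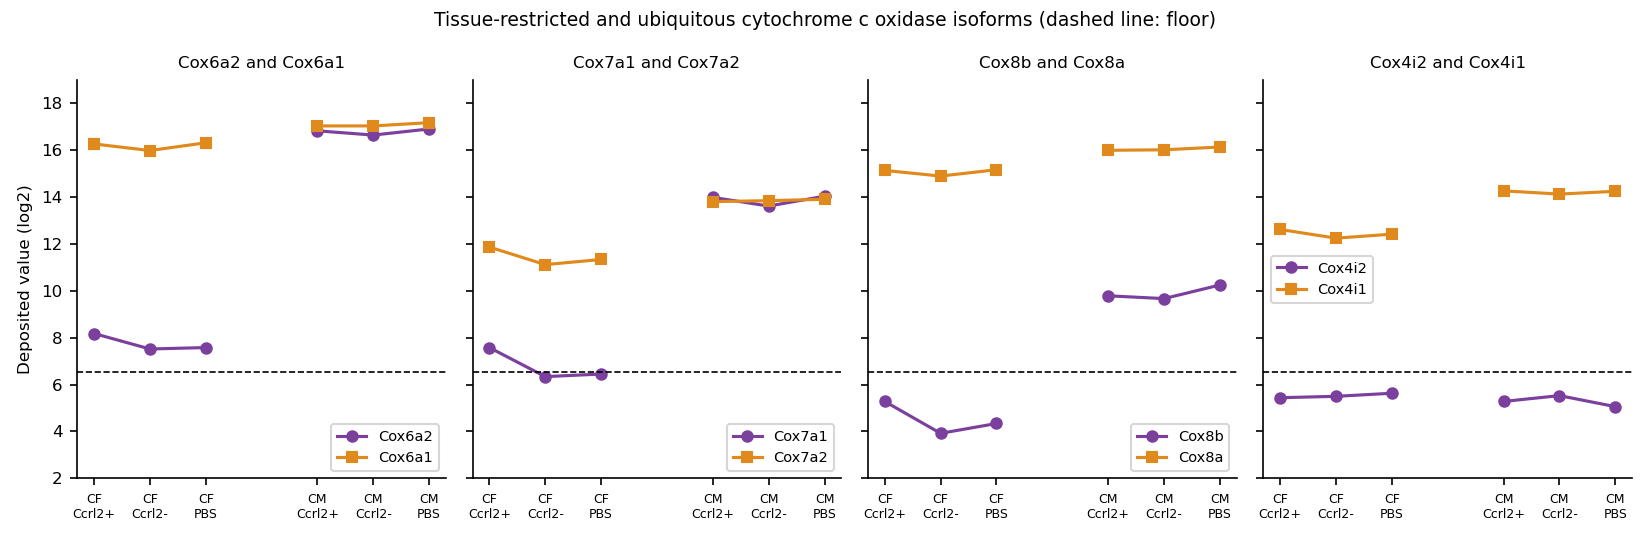
Deposited log2 values of tissue-restricted (circles) and ubiquitous (squares) isoform genes of complex IV on the 6 arrays (CF, fibroblasts; CM, cardiomyocytes; dashed line, floor of 6.55). Cox6a2, Cox7a1 and Cox8b are far lower in fibroblasts while Cox6a1 and Cox8a differ by less than 2-fold with PBS, and Cox4i2 is below the floor throughout; levels of different probe sets are not comparable.

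Of the other complex IV genes, Cox5a, a subunit on the matrix side of the enzyme, differed by -2.92 with PBS. Cox7c, a small ubiquitous subunit, had 16.52, 16.47 and 16.56 in fibroblasts and 17.77, 17.70 and 17.79 in cardiomyocytes. Cox7a2l, which links complex III to complex IV in supercomplexes and is not a structural subunit of the free enzyme, stood apart with 13.75, 13.45 and 13.63 in fibroblasts and 13.52, 13.49 and 13.71 in cardiomyocytes. Its values in the cultures overlapped, and its PBS difference was -0.08. Ndufa4 had 14.55, 14.48 and 14.75 in fibroblasts against 16.45, 16.41 and 16.57 in cardiomyocytes.

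ATP synthase had a median PBS difference of -1.74. The 5 genes of the F1 head and central stalk, which make ATP, had a median of -1.46, the 4 peripheral stalk genes -1.77 and the 3 c-ring genes -2.30. The c-ring genes encode one and the same mature protein behind different import sequences, and they differed among themselves. Atp5g1 had 14.32, 14.63 and 14.70 in fibroblasts with Ccrl2+ secretome, Ccrl2- secretome and PBS, and 16.95, 16.94 and 17.00 in cardiomyocytes (-2.30 with PBS). Atp5g3 had 13.14, 13.21 and 13.30 against 15.76, 15.80 and 16.07 (-2.77). Atp5g2 had 15.32, 15.13 and 15.44 against 15.75, 15.67 and 15.80 (-0.36). Atp5g2 was thus 1 of 3 genes past the floor that were 2-fold lower in fibroblasts in no medium, with Cox7a2l and Cox8c.

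Atp5b, the catalytic beta subunit, had 16.42, 16.38 and 16.53 in fibroblasts and 17.84, 17.81 and 17.99 in cardiomyocytes. Atp5k, the small subunit e of the membrane part, had 5.17, 5.30 and 5.97 against 7.21, 6.99 and 7.45. Since its fibroblast values were below the floor, its PBS difference was at least 1.87-fold.

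The cell type difference changed little with the medium. Across the subunit genes past the floor in both comparisons, the median gap between the PBS difference and that with Ccrl2+ secretome was 0.20 on the log2 scale, and between PBS and Ccrl2- secretome 0.18. The largest gap, 1.40, was that of Cox8b between PBS and Ccrl2+ secretome, and it rests on fibroblast values below the floor.

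The secretomes moved few subunit genes in fibroblasts. With Ccrl2+ secretome over PBS, 1 of 78 genes was at least 2-fold higher (4.87% of all named genes) and 0 were lower (6.13%). The median difference was -0.02 (all genes -0.07) and the middle 50% of the subunit genes spanned 0.34 (all genes 0.65). The Ccrl2+ over PBS and Ccrl2- over PBS comparisons share the PBS array of the culture, and their values are given side by side without a measure of likeness.

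The gene past 2-fold was Cox7a1, with 7.58 with Ccrl2+ secretome against 6.45 with PBS. Since the PBS value was below the floor, the difference of 1.13 is at least 2.04-fold, and no fibroblast value of Cox7a1 exceeded the 95th percentile of the negative controls. Cox6a2 was 0.60 higher (8.18 against 7.58), and Cox8b had 5.28 against 4.34, both below the floor. All 8 cardiomyocyte markers were higher on the same array than with PBS, among them Myh6 (11.13 against 9.63), Actn2 (10.60 against 9.20) and Tnni3 (7.88 against 6.92). In the 7 past the floor the median was 0.96, and the part of cardiomyocyte RNA in the isoform differences was not tested.

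At 1.5-fold, 4 subunit genes were higher with Ccrl2+ secretome than with PBS in fibroblasts (11.4% of all genes): Cox7a1, Ndufa6 (0.69), Ndufb8 (0.63) and Cox6a2. At the same threshold 3 complex I genes were lower (15% of all genes): Ndufa5 (-0.76), Ndufa9 (-0.75) and Ndufs1 (-0.64). Ndufs1 carries some of the iron-sulfur clusters of the N module. Both shares are below the background. By complex the medians lay between -0.20 for Ndufa4 and 0.14 for complex IV. Within ATP synthase, 11 of 16 genes were below 0 (55.3% of all named genes were), with a median of -0.12, and the peripheral stalk genes Atp5pb (13.33 against 13.77) and Atp5o (13.29 against 13.72) were the lowest.

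With Ccrl2- secretome over PBS in fibroblasts, 0 of 77 genes were 2-fold higher (6.18% of all) or 2-fold lower (4.83%). Differences were small but mostly one way: 64 of 77 genes (83.1%) were below 0, where 57.8% of all named genes were, and 12 were above. The median was -0.18, where that of all genes was -0.09, and it was -0.076 once a loess trend was removed. All 16 ATP synthase genes past the floor were below 0 (median -0.22), as were 28 of 34 complex I genes (-0.19) and 10 of 12 complex IV genes (-0.17). On the same array 6 of 7 cardiomyocyte markers were below PBS (median -0.21), among them Tnnt2 (15.08 against 16.12) and Myl7 (9.42 against 10.57), and all 4 endothelial markers past the floor were lower (median -0.40). Of the 6 macrophage markers 4 were higher and 2 lower (Cd14 11.30 against 8.54, C1qa 9.42 against 11.22). The part of these cells in the subunit values was not tested.

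The lowest differences were those of Uqcrc2 (9.66 against 10.35, -0.69), of Ndufs7 (11.82 against 12.47, -0.65) and Ndufs8 (12.82 against 13.45, -0.63), which hold iron-sulfur clusters on the path to ubiquinone, and of Ndufb10 (6.89 against 7.48, -0.59). These 4 were the genes past 1.5-fold lower (14.8% of all genes) and 0 were 1.5-fold higher (10.6%). By contrast, Ndufb8 was at 7.78 against 7.27 and Cycs at 14.77 against 14.37.

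Between the secretomes in fibroblasts, Ccrl2+ over Ccrl2-, 1 of 78 genes was at least 2-fold higher, again Cox7a1 (7.58 against 6.34, at least 2.04-fold; 8.55% of all genes), and 0 were lower (10.1%). The median was 0.16 (all genes 0.00), with 54 genes above 0 and 24 below, where 49.4% of all named genes were above. At 1.5-fold, Cox7a1, Ndufa6 (11.90 against 10.94), Cox7a2 (11.87 against 11.12), Cox6a2 and Ndufa2 (10.42 against 9.80) were higher (18.3% of all), and Ndufa5 (10.40 against 11.10), Ndufa12 (13.24 against 13.93) and Ndufa9 (10.67 against 11.32) lower (19.2%). Complex IV had the highest median of the complexes, 0.28. Of the 7 cardiomyocyte markers past the floor all were at least 2-fold higher with Ccrl2+ than with Ccrl2- secretome (median 1.48), and their part in the complex IV values was not tested.

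**Figure D4:**
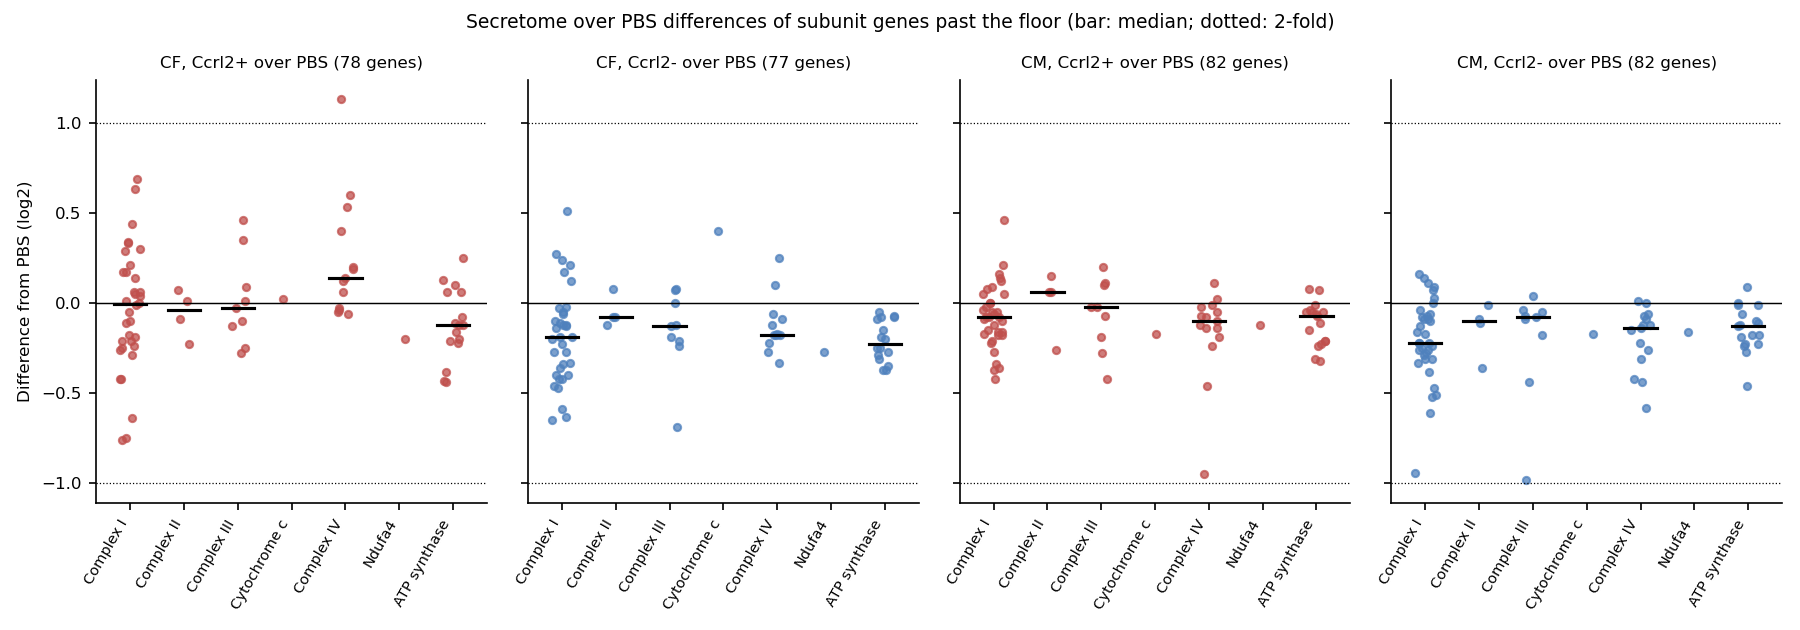
Secretome over PBS difference (log2) of each subunit gene past the floor, by complex, in fibroblasts (CF) and cardiomyocytes (CM); bars are medians over genes, dotted lines 2-fold. Cox7a1 is the 1 point past 2-fold, in fibroblasts with Ccrl2+ secretome, and most points lie below 0 with Ccrl2- secretome in both cultures.

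Cardiomyocyte values were closer still. With Ccrl2+ secretome over PBS, 0 of 82 genes were 2-fold higher (0.21% of all genes) or lower (0.629%), and the median was -0.08 (all genes -0.01), with 61 genes below 0 and 19 above, where 51.2% of all named genes were below. On that array all 5 macrophage markers past the floor were lower than with PBS (median -0.61) and 5 of 6 fibroblast markers higher (median 0.34; Col3a1 9.77 against 8.78), and their part was not tested. The lowest subunit gene was Cox8c (5.82 against 6.77), whose value with secretome was below the floor and whose difference was thus at least 1.16-fold; it was the 1 gene past 1.5-fold lower (3.26% of all). Cox8b had 9.79 against 10.25, Ndufb7 10.84 against 11.26 and Uqcrfs1, the Rieske iron-sulfur protein of complex III, 13.54 against 13.96. Ndufb8 was the highest, with 9.72 against 9.26.

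With Ccrl2- secretome over PBS in cardiomyocytes, 0 of 82 genes were 2-fold higher (0.746%) or lower (0.786%). Here 70 genes were below 0 and 9 above, where 51.7% of all named genes were below, and the median was -0.14 (all genes -0.02). Past 1.5-fold lower were Cyc1 (11.58 against 12.56, -0.98), Ndufb10 (9.07 against 10.01, -0.94) and Ndufs6, an N module subunit (13.08 against 13.69, -0.61), 3 of 82 where 4.6% of all genes met the criterion. Complex I had the lowest median of the 5 complexes (-0.22), and in complex II all 4 genes were below 0. Cox8b had 9.67 against 10.25 and Cox7a1 13.62 against 14.04, while Cox6a2 had 16.65 against 16.91.

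On the same array all 6 fibroblast markers were higher than with PBS (median 0.94), among them the collagen gene Col3a1 (10.93 against 8.78) and Tcf21 (7.52 against 6.20). Of the 8 cardiomyocyte markers 5 were lower and 3 higher (median -0.12). Whether more fibroblast RNA had a part in the lower subunit values was not tested.

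Ccrl2+ over Ccrl2- secretome in cardiomyocytes gave 0 of 81 genes 2-fold higher (0.13%) or lower (0.18%), with a median of 0.08 (all genes 0.00). There were 62 genes above 0 and 16 below, where 48.3% of all named genes were above, and 30 of the 35 complex I genes were above. All 6 fibroblast markers (median -0.44; Col1a1 10.07 against 11.30) and all 5 macrophage markers past the floor (median -0.32) were lower in the same comparison, and their part was not tested. Ndufb10 (9.79 against 9.07) and Cyc1 (12.28 against 11.58) were the 2 past 1.5-fold higher (2.32% of all).

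The order of the arrays within a culture showed the one pattern common to both. Among the 78 subunit genes past the floor in fibroblasts, 20 had their lowest value with Ccrl2+ secretome, 52 (66.7%) with Ccrl2- secretome and 6 with PBS. Among all 10259 named genes past the floor the Ccrl2- array was lowest in 39.6%. Among the 82 in cardiomyocytes, 16 were lowest with Ccrl2+ secretome, 57 (69.5%) with Ccrl2- secretome and 4 with PBS, and 5 were tied, against 35.0% of all named genes on the Ccrl2- array.

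In both cultures at once, 36 of the 78 genes past the floor in each (46.2%) were lowest with Ccrl2- secretome, where 13.6% of 9604 named genes were. Such a joint share depends on the shares within each culture given above, and agreement gene by gene was not tested. The cultures share no array, and the labels do not say whether both received the same macrophage preparation. Below PBS with Ccrl2- secretome in both cultures were 55 of the 78 (70.5%, against 29.3% of all genes), and above it in both were 2 (1871 of the 9604 named genes). The range over the 3 arrays of a culture was small, with a median of 0.34 in fibroblasts and 0.20 in cardiomyocytes, and no replicate arrays show how much of it is array to array variation.

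**Figure D5:**
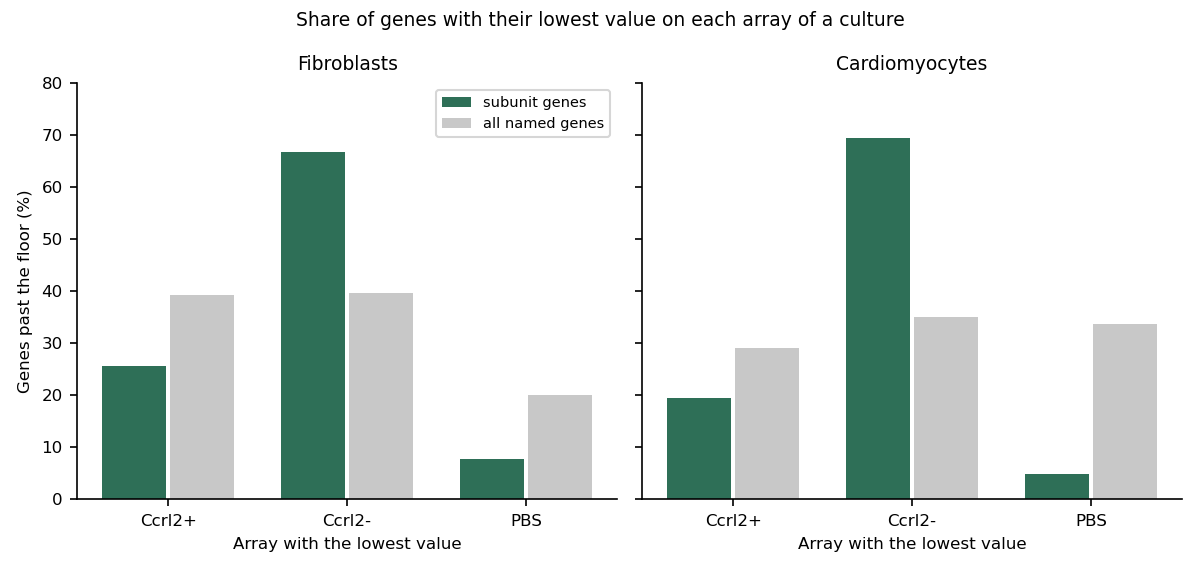
Share (%) of the subunit genes (dark) and of all named genes (grey) past the floor whose lowest value in a culture was on the Ccrl2+ secretome, Ccrl2- secretome or PBS array; ties are left out. The Ccrl2- array was lowest for 66.7% of subunit genes in fibroblasts and 69.5% in cardiomyocytes, against 39.6% and 35.0% of all named genes.

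Genes that build, feed or regulate the chain were described from lists of their own. Of 39 assembly factors past the floor with PBS, 21 were 2-fold lower in fibroblasts than in cardiomyocytes (16.9% of all named genes). The median was -1.04, and 0 were 2-fold higher (13.9%). Lyrm7, which inserts the Rieske protein into complex III, was at 6.19 against 9.08 and Uqcc1, another complex III factor, at 8.80 against 11.29. With its fibroblast value raised to the floor, Lyrm7 differed by -2.53. Ttc19, which helps clear Rieske fragments from complex III, was at 10.42 against 10.15. This list includes Cox7a2l.

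Of genes that supply electrons or export ATP, 15 of 18 were 2-fold lower (16.9% of all named genes), with a median of -1.95. Ckmt2, the mitochondrial creatine kinase of muscle, was at 4.01 against 12.23, and Idh3a of the citric acid cycle at 13.17 against 16.61. With its fibroblast value raised to the floor, Ckmt2 differed by -5.68. The smallest differences were those of Gpd2 (8.64 against 9.47) and Dhodh (8.34 against 8.96), dehydrogenases that pass electrons to ubiquinone from outside the citric acid cycle.

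Regulators split. With PBS, 5 of 12 past the floor were 2-fold lower in fibroblasts (16.9% of all named genes), and the median was -0.41. Of these 5, Ppargc1a, Perm1, Esrrg and Ppara had fibroblast values below the floor. With those values raised to it, their differences were -5.92, -3.94, -1.49 and 0. Ppargc1a, the coactivator PGC-1alpha that drives mitochondrial biogenesis, was at 5.98 in fibroblasts against 12.47 in cardiomyocytes, and Perm1, a muscle coactivator of the same pathway, at 4.71 against 10.49. Nrf1 was at 10.23 against 9.96 and Gabpa at 12.28 against 12.18, close together in the cultures, while their motifs were frequent in the subunit promoters above.

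In fibroblasts with Ccrl2+ secretome Ppargc1a had 8.51, against 5.23 with Ccrl2- secretome and 5.98 with PBS. Counted against the floor, the difference from PBS was at least 1.96 on the log2 scale. On that array Gabpb1, the partner of Gabpa, had 9.35 against 10.54 with PBS and Tfam, which packs and transcribes mitochondrial DNA, 8.05 against 8.87. Ppargc1a read 12.47 in cardiomyocytes with PBS, and all 8 cardiomyocyte markers were higher on this fibroblast array than with PBS; their part in its value was not tested. Of the 8 regulators past the floor, 1 (Ppargc1a) was 2-fold higher than with PBS (4.87% of all named genes) and 1 (Gabpb1) 2-fold lower (6.13%). The regulator median was -0.26, with 2 above 0 and 6 below, where the subunit median was -0.02. All fibroblast values given here for Ppargc1a, Gabpb1 and Tfam lie under the negative control limit of 10.74. Negative controls also differed between the same arrays: 19.7% of those that reached 6.55 lay 2-fold or more apart. The subunits encoded by mitochondrial DNA were not analysed here.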

How the data were processed

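The 6 arrays of heart cell cultures, 1 per group, were grouped by the source labels. The deposited values are log2 probe set values; per the submitters' processing notes they came from Affymetrix Expression Console, with its version, summary method and build not given in the sources used here. Sorted values of the 6 arrays differed by 0.0902 on average and by at most 0.30, so no further normalization was applied. Of 28846 probe sets, 19572 had 1 gene symbol in the platform annotation and 9274 none. For the 55 symbols with several probe sets the one with the highest mean was used.

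Differences, counts past 2-fold over a floor of 6.55 and medians were computed for 9 comparisons with Python 3.11.15, numpy 2.4.6, pandas 2.3.3 and statsmodels 0.14.6, and the counting was tested on simulated data. Each printed bound raises the lower value to the floor or, where the text names it, to the negative control limit of 10.74. No test was run, since each group holds 1 array. Alternatives were a 1.5-fold threshold, omission of the floor, a higher floor (75th percentile, 10.14), quantile normalization, removal of a loess trend (span 0.4), the mean of probe sets and values raised to the floor or, added after seeing the data, to 10.74, the highest 95th percentile of the negative controls on any array.

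The members and lists were chosen with earlier results of these data known. Genes were named by rule: isoform pairs, genes past 2-fold with a secretome, those with the largest and smallest difference or the highest and lowest mean per complex, and the 2 largest differences each way in each other list. Genes named at 1.5-fold were chosen after their values were seen.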

Additional observations from a re-analysis of the deposited data

How the results depend on the processing

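Of the 9 medians, 8 kept their sign in all 6 alternatives; that of fibroblasts with Ccrl2+ secretome over PBS, -0.02, changed sign in 2 of 6 (-0.05 to 0.06). The fibroblast over cardiomyocyte counts stayed within 1.5 times, and in these 6 alternatives the medians stayed between -2.10 and -1.90. At 1.5-fold, fibroblasts with Ccrl2+ secretome over PBS had 4 genes higher and 3 lower, with Ccrl2- secretome over PBS 4 lower, and with Ccrl2+ over Ccrl2- secretome 5 higher and 3 lower. Cardiomyocytes had 1 lower with Ccrl2+ over PBS, 3 lower with Ccrl2- over PBS and 2 higher with Ccrl2+ over Ccrl2-. With the floor at the 75th percentile, or values raised to the negative control limit of 10.74, Cox7a1 dropped out, leaving 0 higher in both fibroblast comparisons that had counted it. That limit gave 61 to 63 subunit genes lower in fibroblasts than in cardiomyocytes, with medians between -1.97 and -1.855. Ccrl2+ over Ccrl2- secretome in fibroblasts had 2 higher with no floor and 2 after quantile normalization. The fibroblast median with Ccrl2- secretome over PBS moved to -0.076 once the loess trend was removed, and the cause was not tested. Under 4 alternatives chosen after seeing the data, the Ccrl2- array stayed lowest for 41 to 55 subunit genes in fibroblasts, 53 to 59 in cardiomyocytes and 28 to 37 in both; with the loess trend removed, 38.5% were lowest in both, against 12.2% of all genes. The 11 genes never above the negative controls are limited by signal.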

Other observations

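Values of 6 genes outside the subunit rule, picked after results were seen, were spread widely in fibroblasts with Ccrl2- secretome. Ndufa4l2, a paralogue of Ndufa4 known as a target of hypoxia-inducible factor, had 6.78, 11.14 and 5.76 in fibroblasts with Ccrl2+ secretome, Ccrl2- secretome and PBS, and 8.78, 8.87 and 7.54 in cardiomyocytes. With Ccrl2- secretome over PBS its difference in fibroblasts was at least 4.59 on the log2 scale, counted against the floor, while Ndufa4 itself differed by -0.27. Higd1a, a small hypoxia-induced protein that associates with complex IV, had 9.69, 11.68 and 9.68 in fibroblasts and 11.66, 11.32 and 11.34 in cardiomyocytes. Slc2a1, the glucose transporter GLUT1, had 14.83, 16.19 and 14.08 in fibroblasts and 15.18, 15.13 and 14.97 in cardiomyocytes. The other 3 were close to PBS or below it: Ndufab1, the mitochondrial acyl carrier protein, had 12.73 with Ccrl2- secretome against 12.69 with PBS, Higd2a, a relative of Higd1a, 13.14 against 13.77, and Atpif1, the ATP synthase inhibitor, differed from PBS by -0.53. Cox4i2, a subunit isoform named above as induced by low oxygen, stayed below the floor on all 6 arrays. Whether low oxygen had a part in any of these values was not tested.

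On the fibroblast array with Ccrl2+ secretome, 1 of 38 assembly factors past the floor was 2-fold higher than with PBS (4.87% of all named genes) and 1 was 2-fold lower (6.13%). These were Lyrm7 (7.82 against 6.19) and Ttc19 (9.36 against 10.42). Both shares are below the background, and all these values lie under the negative control limit of 10.74. With its PBS value raised to the floor, Lyrm7 differed by 1.27. Uqcrfs1, the gene of the Rieske protein of complex III, read 11.07 against 11.10, and no link between these genes was tested.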
